A study of Mus musculus with 4 samples.

Results

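The NF-kB system is described here through 10 genes listed by symbol, of the 23235 symbols in each deposited table. They are the subunit genes Rela, Relb, Rel, Nfkb1 and Nfkb2, the IkB-family genes Nfkbia, Nfkbib, Nfkbie and Nfkbiz, and Tnfaip3. RNA sequencing was done on primary mouse embryonic fibroblasts of the C57BL/6 strain, cells grown from minced and trypsinised embryos. There were 4 libraries, 1 per genotype. They were labelled G3 Gadd45-/-Terc-/- (dKO), here G3 dKO; G3 Terc-/-; Gadd45-/-; and wild type (WT). The series' design text names the deleted Gadd45 gene as Gadd45a. Terc encodes the template RNA of telomerase, and G3 marks the generation of Terc deficiency as labelled. How many embryos went into a library, and the passage of the cells, are not given in the sources used here.

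NF-kB transcription factors are pairs of Rel-family proteins. In resting cells most are held in the cytoplasm by IkB proteins. A signal from a cytokine or pathogen receptor activates the IkB kinase (IKK), which marks the IkB protein for destruction and frees the factor to enter the nucleus. Among the genes it then switches on are several of its own inhibitors, so the pathway is known for negative feedback. In fibroblasts it is best known for driving cytokine and chemokine genes.

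Values are FPKM (fragments per kilobase of transcript, scaled to each library's mapped fragments) as the authors deposited them. A difference is that of log2(FPKM + 1), and a gene is called higher or lower at a size of 1 or more, which is 2-fold on that scale. No genotype had a second library, so no difference has a replicate check, no p-value can be had, and the spread between cultures is unknown. Estimated depth was 19200000 to 19600000 fragments a library. From it an approximate fragment count was made for each member, and the 95% intervals given with folds (exact binomial) cover counting error only. All 10 members had a mean of at least 1 FPKM over the 4 libraries.

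Gadd45a RNA went against the labels: it was at 45.1 FPKM in the library labelled G3 dKO, 31.4 in G3 Terc-/-, 33.9 in the library labelled Gadd45-/- and 22.9 in WT. Genotypes are therefore given as labelled. Terc was listed at 0 in both G3 libraries, at 0.259 FPKM in the library labelled Gadd45-/- and at 0.53 in WT. All of these values lie near 0, so Terc is no firm check of the labels. Male-specific Ddx3y stood at 16.4 FPKM in the library labelled Gadd45-/- with Xist at 0.154, while Xist was at 34.1, 30.2 and 24.0 FPKM in the libraries labelled G3 dKO, G3 Terc-/- and WT, so sex cannot be told apart from genotype where the first is compared. All 9 fibroblast markers were at 20.8 FPKM or more in every library, with sums of 12599, 7418, 13546 and 12732 FPKM in the libraries labelled G3 dKO, G3 Terc-/-, Gadd45-/- and WT.

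In the G3 Terc-/- library 3 of the 10 genes were higher than in WT by the size rule, and none was lower. The 3 were the IkB-family genes Nfkbia and Nfkbiz, and Tnfaip3. Genes for the DNA-binding subunits were not past the rule. Among all 22490 symbols compared, 5.7% were higher and 3.32% lower by the same rule, and among the 11586 with a mean of at least 1 FPKM, 9.93% were higher. The median difference of the 10 genes was 0.44, beside 0 for all symbols compared and 0.006 for those with such a mean. In bulk RNA, fewer cells of a type and less RNA per cell cannot be told apart.

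Nfkbia encodes IkB-alpha, the inhibitor that is destroyed and remade within a single round of signalling. Its level was 9.15 FPKM in the library labelled G3 dKO, 53.8 in G3 Terc-/-, 9.06 in the library labelled Gadd45-/- and 8.72 in WT. Thus 1 library was high and the other 3 lay within 1.05-fold of each other. The G3 Terc-/- level was 6.18-fold that of WT (counting interval 5.36 to 7.12), a difference of 2.50.

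Nfkbiz encodes IkB-zeta, a nuclear member of the IkB family that acts on a subset of NF-kB targets. Its level was 10.6 FPKM in the library labelled G3 dKO, 75.3 in G3 Terc-/-, 10.1 in the library labelled Gadd45-/- and 10.5 in WT. Again the G3 Terc-/- library stood alone, with the other 3 within 1.05-fold. Its level there was 7.15-fold that of WT (counting interval 6.64 to 7.72), a difference of 2.73 and the largest of the 10 in this comparison.

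Tnfaip3 encodes A20, a ubiquitin-editing enzyme that shuts down signalling upstream of IKK. The values were 0.915 FPKM in the library labelled G3 dKO, 9.96 in G3 Terc-/-, 1.59 in the library labelled Gadd45-/- and 1.09 in WT. It had the largest ratio of FPKM, 9.12-fold over WT (counting interval 7.29 to 11.4), and a smaller difference than Nfkbiz on the log2(FPKM + 1) scale (2.39) because the pseudocount shrinks low values. The 3 low libraries spread over 1.74-fold and rest on about 75, 132 and 89 fragments in the libraries labelled G3 dKO, Gadd45-/- and WT.

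Ranked by difference between G3 Terc-/- and WT over the 22490 symbols, Nfkbiz was number 156, Nfkbia 191 and Tnfaip3 217 from the highest.

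**Figure D1:**
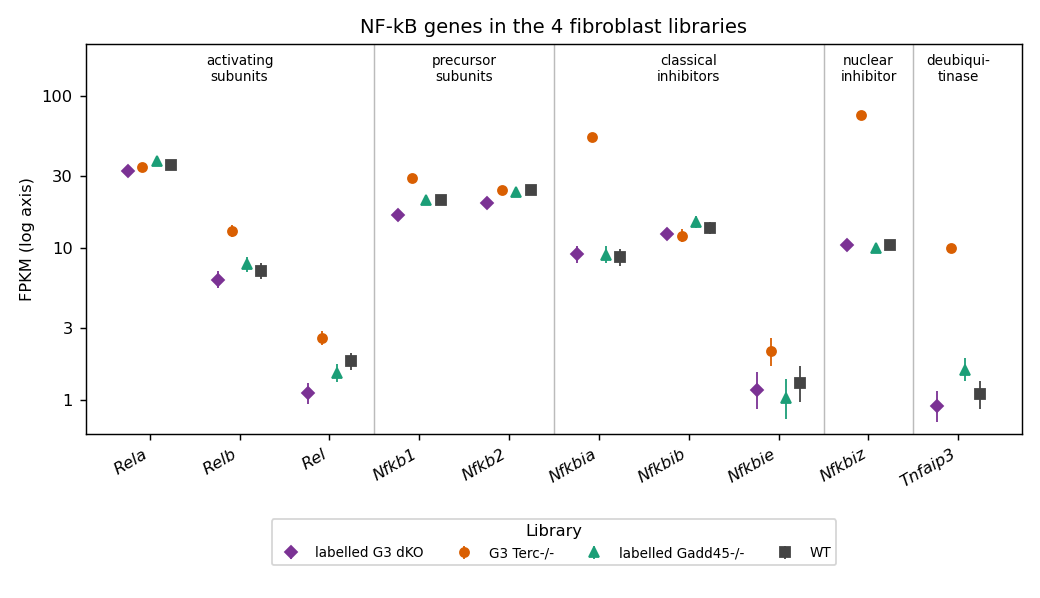
FPKM of the 10 NF-kB genes (log axis) in the libraries labelled G3 dKO, G3 Terc-/-, Gadd45-/- and WT, grouped by role; each point is 1 library and bars are approximate 95% counting intervals. Nfkbia, Nfkbiz and Tnfaip3 stand far higher in the G3 Terc-/- library (53.8, 75.3 and 9.96 FPKM) than in the other 3, while Rela lies between 32.2 and 37.3 FPKM in all 4.

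The remaining inhibitors of the classical kind, which hold NF-kB dimers in the cytoplasm, stayed inside the size rule. Nfkbib, for IkB-beta, was at 12.4 FPKM in the library labelled G3 dKO, 12.1 in G3 Terc-/-, 14.9 in the library labelled Gadd45-/- and 13.6 in WT. Its G3 Terc-/- level was 0.889-fold that of WT (counting interval 0.779 to 1.01), within counting error. Nfkbie, for IkB-epsilon, was low throughout, at 1.18 FPKM in the library labelled G3 dKO, 2.10 in G3 Terc-/-, 1.04 in the library labelled Gadd45-/- and 1.29 in WT. Like Nfkbia it was highest in G3 Terc-/-, at 1.63-fold the WT level (counting interval 1.14 to 2.29).

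Rela encodes p65, the main activating subunit in most cells, and it was the most abundant of the 10 transcripts in 3 of the libraries. Rela was at 32.2 FPKM in the library labelled G3 dKO, 34.1 in G3 Terc-/-, 37.3 in the library labelled Gadd45-/- and 35.2 in WT. The 4 values lay within 1.16-fold, with G3 Terc-/- at 0.967-fold WT (counting interval 0.903 to 1.04).

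Relb encodes the activating subunit of the alternative NF-kB pathway, where it pairs with p52. It was at 6.23 FPKM in the library labelled G3 dKO, 12.9 in G3 Terc-/-, 7.85 in the library labelled Gadd45-/- and 7.11 in WT. Its G3 Terc-/- level was the highest of the 4 and 1.82-fold that of WT (counting interval 1.57 to 2.12), short of the size rule at a difference of 0.78. Rel, for c-Rel, a subunit best known from lymphocytes, was at 1.12 FPKM in the library labelled G3 dKO, 2.56 in G3 Terc-/-, 1.51 in the library labelled Gadd45-/- and 1.81 in WT. Per length, the WT library held 19.5 times as much Rela as Rel transcript, and the G3 Terc-/- library 13.3 times.

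The precursor genes parted from each other. Nfkb1, which encodes p105 and its product p50, was at 16.5 FPKM in the library labelled G3 dKO, 28.7 in G3 Terc-/-, 20.9 in the library labelled Gadd45-/- and 20.9 in WT. It was 1.38-fold higher in G3 Terc-/- than in WT (counting interval 1.29 to 1.47). Nfkb2, which encodes p100 and its product p52, was at 19.7 FPKM in the library labelled G3 dKO, 24.1 in G3 Terc-/-, 23.4 in the library labelled Gadd45-/- and 24.1 in WT. Its G3 Terc-/- level was 1.00-fold that of WT (counting interval 0.937 to 1.07). In GENCODE M21, exons of Nfkb2 overlap those of 2 genes on the opposite strand, a long noncoding RNA gene (531 bases) and Psd (299 bases), and exons of Nfkbib overlap those of Ccer2 (314 bases) and Sirt2 (42 bases). The strand setting of the counting is not given in the sources used here.

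The order of the levels changed with these differences. In the libraries labelled G3 dKO, Gadd45-/- and WT the first 7 places were held in the same order by Rela, Nfkb2, Nfkb1, Nfkbib, Nfkbiz, Nfkbia and Relb, and Rel, Nfkbie and Tnfaip3 filled the last 3. In G3 Terc-/- Nfkbiz came first and Nfkbia second, both above Rela, and Tnfaip3 came eighth, below Nfkbib.

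By sum, the 5 subunit transcripts reached 75.7 FPKM in the library labelled G3 dKO, 102 in G3 Terc-/-, 90.9 in the library labelled Gadd45-/- and 89.1 in WT. The 3 classical inhibitors summed to 22.7 FPKM in the library labelled G3 dKO, 68.0 in G3 Terc-/-, 25.0 in the library labelled Gadd45-/- and 23.6 in WT. There was thus 0.664 FPKM of classical inhibitor per FPKM of subunit in G3 Terc-/-, against 0.265 in WT. The ratio was 0.300 in the library labelled G3 dKO and 0.275 in the library labelled Gadd45-/-. Nfkbia alone made up 79.2% of the inhibitor sum in G3 Terc-/-, against 36.9% in WT. These are transcript levels, and protein, which the pathway controls by degradation, was not measured.

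**Figure D2:**
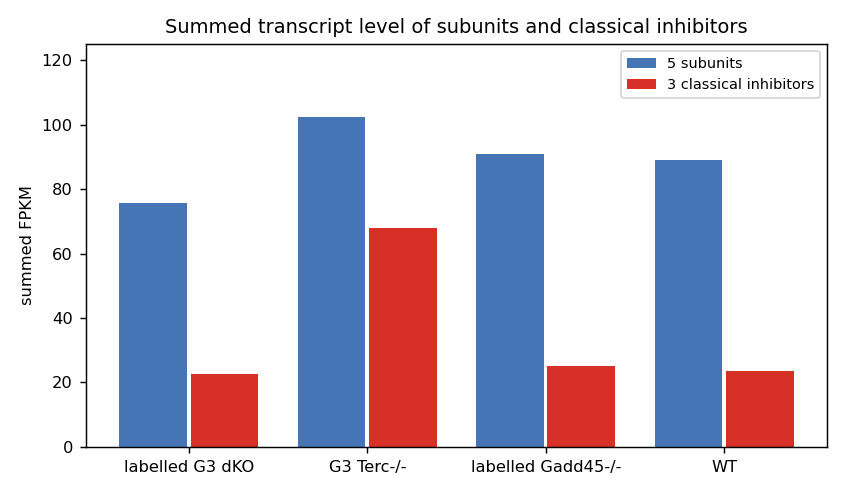
Summed FPKM of the 5 subunit genes (blue) and the 3 classical inhibitor genes (red) in the libraries labelled G3 dKO, G3 Terc-/-, Gadd45-/- and WT, 1 library per bar. The inhibitor sum is 68.0 FPKM in G3 Terc-/- and between 22.7 and 25.0 FPKM in the other 3, and the subunit sum varies between 75.7 and 102 FPKM.

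Promoter sequence is shown for 4 members, because a group that moved (Nfkbia, Tnfaip3) can be set beside genes close to WT in G3 Terc-/- (Nfkb2 at 1.00-fold and Rela at 0.967-fold). The 250 bases before an annotated start are given 5′ to 3′ on the gene's strand from the RefSeq promoter table of build GRCm38.p6. Capitals mark matches, on either strand, to the kappaB consensus, the family's 10-base binding sequence. For Nfkb2 and Tnfaip3, which have 3 and 2 annotated starts, the most upstream is shown.
Nfkbia, chr12:55492648-55492897, minus strand: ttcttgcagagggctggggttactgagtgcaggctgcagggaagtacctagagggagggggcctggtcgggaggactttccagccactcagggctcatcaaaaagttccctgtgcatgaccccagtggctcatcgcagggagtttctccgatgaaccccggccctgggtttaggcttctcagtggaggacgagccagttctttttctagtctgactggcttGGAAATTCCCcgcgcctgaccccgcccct
Tnfaip3, chr10:19015411-19015660, minus strand: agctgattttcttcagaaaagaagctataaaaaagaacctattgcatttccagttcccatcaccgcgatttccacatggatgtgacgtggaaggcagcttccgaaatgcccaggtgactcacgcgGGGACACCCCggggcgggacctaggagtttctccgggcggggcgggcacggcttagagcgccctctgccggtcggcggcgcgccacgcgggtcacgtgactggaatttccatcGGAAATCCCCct
Nfkb2, chr19:46304487-46304736, plus strand: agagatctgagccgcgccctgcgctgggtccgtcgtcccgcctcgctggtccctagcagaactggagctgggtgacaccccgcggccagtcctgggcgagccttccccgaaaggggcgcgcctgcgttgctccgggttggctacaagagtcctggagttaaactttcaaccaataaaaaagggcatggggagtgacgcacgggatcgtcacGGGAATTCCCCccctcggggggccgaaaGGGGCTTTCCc
Rela, chr19:5637291-5637540, plus strand: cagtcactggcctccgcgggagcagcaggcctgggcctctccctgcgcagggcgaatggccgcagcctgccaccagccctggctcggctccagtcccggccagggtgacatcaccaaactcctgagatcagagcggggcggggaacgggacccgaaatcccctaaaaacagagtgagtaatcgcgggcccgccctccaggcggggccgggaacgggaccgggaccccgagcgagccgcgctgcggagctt

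The table held promoters of 7 of the 10 genes: Rela, Rel, Nfkb2, Nfkbia, Nfkbib, Nfkbie and Tnfaip3. Within 250 bases before to 50 after a start, 5 of the 7 held the consensus: Rel, Nfkb2, Nfkbia, Nfkbie and Tnfaip3. Rela and Nfkbib had no match in this window. For Nfkbib and Nfkbie, the bases just after the only listed start were not found in a GENCODE M21 coding transcript of the gene. In all, 4.51% of 32851 RefSeq promoter windows, and 5.53% of 17492 protein-coding genes, held it. The looser pattern GGGNNNNNCC, searched on both strands and containing every consensus match, was in 6 of the 7, and in 50.8% of all windows and 59.8% of protein-coding genes. Overlapping matches occur, as at positions -39 and -38 of Nfkb2, where a perfect palindrome (GGGAATTCCC) also matches on both strands. The match in Nfkbia lies at position -29 and those in Tnfaip3 at -125 and -12, where a position is that of the first base of the match counted back from the start.

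A consensus match did not go with one expression pattern. Nfkb2 held 3 match positions at its most upstream start, of which those at -39 and -38 overlap. It did not differ between G3 Terc-/- and WT beyond counting error, whereas Nfkbia held 1 position and was 6.18-fold higher in G3 Terc-/-. Tnfaip3 held 2 at its most upstream start and was 9.12-fold higher in G3 Terc-/- than in WT. Rel and Nfkbie, each with a match, were 1.41-fold and 1.63-fold higher in G3 Terc-/- than in WT. No promoter was available for Nfkbiz, which had the largest difference, or for Relb and Nfkb1. Rela and Nfkbib, with none, were at 0.967-fold and 0.889-fold. A match in this window is a description of the letters and not a measured binding site.

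The library labelled G3 dKO was set against G3 Terc-/- to ask what the added label of Gadd45 deficiency goes with in G3 cells. Here the same 3 genes, Nfkbia, Nfkbiz and Tnfaip3, were lower by the size rule and none of the 10 was higher. Of all symbols compared, 2.79% were lower and 0.849% higher, and of those with a mean of at least 1 FPKM, 4.78% were lower. The median difference of the 10 genes was -0.76, beside 0 for all symbols and -0.031 for those with such a mean. This comparison and that of G3 Terc-/- with WT share the G3 Terc-/- library, so their opposite directions are not separate observations.

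Nfkbiz was at 10.6 FPKM in the library labelled G3 dKO, against 75.3 in G3 Terc-/-, a ratio of 0.14 (counting interval 0.13 to 0.151). For Nfkbia the ratio was 0.17 (0.148 to 0.195), and for Tnfaip3 it was 0.0919 (0.0712 to 0.116). Ranked from the most negative difference over the 22490 symbols, Nfkbiz was number 78, Tnfaip3 98 and Nfkbia 111. Relb lay just inside the size rule, with a difference of -0.95 and a ratio of 0.482 (counting interval 0.411 to 0.562).

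Of the other subunit genes, Rel, Nfkb1 and Nfkb2 also lay lower in the library labelled G3 dKO than in G3 Terc-/- beyond counting error, and Rela did not. Rel had a ratio of 0.437 (counting interval 0.36 to 0.529), Nfkb1 of 0.575 (0.536 to 0.617), Nfkb2 of 0.815 (0.759 to 0.876) and Rela of 0.944 (0.88 to 1.01). Among the other inhibitors Nfkbie had a ratio of 0.559 (0.388 to 0.795) and Nfkbib of 1.03 (0.897 to 1.17). Only Nfkbib of the 10 had a positive difference, and at 0.035 it was within counting error.

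Against WT, the library labelled G3 dKO had none of the 10 genes past the rule in either direction, where 3.57% of all symbols were. Among symbols with a mean of at least 1 FPKM, 6.65% were. Its median difference was -0.13, beside 0 for all symbols and -0.043 for those with such a mean. Of the 10 differences, 8 were negative. Beyond counting error, Rela (fold interval 0.852 to 0.978), Rel (0.503 to 0.756), Nfkb1 (0.734 to 0.853) and Nfkb2 (0.762 to 0.879) lay below WT. The other members were within counting error of WT. Nfkbia and Nfkbiz were at 1.05-fold and 1.00-fold WT, so both lay close to WT in this library. Rel had the largest negative difference, -0.41, at 1.12 FPKM against 1.81 in WT.

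Set against the library labelled Gadd45-/-, the library labelled G3 dKO again had 0 of 10 genes past the rule, where 2.63% of all symbols were. Among symbols with a mean of at least 1 FPKM, 4.83% were. The median was -0.24, beside 0 for all symbols and -0.010 for those with such a mean. Tnfaip3 had the largest difference, -0.44, at 0.915 FPKM in the library labelled G3 dKO against 1.59 in the library labelled Gadd45-/-. Sex also differs between these libraries.

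The library labelled Gadd45-/- and WT were the closest pair. None of the 10 genes passed the rule, where 0.311% of all symbols did and 0.509% of those with a mean of at least 1 FPKM. The differences ran from -0.17 (Nfkbie) to 0.31 (Tnfaip3). Their median was 0.024, beside 0 for all symbols and -0.027 for those with such a mean. Tnfaip3 was 1.45-fold higher, on about 132 fragments in the library labelled Gadd45-/- and 89 in WT. Nfkb1 stood at 0.999-fold WT.

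**Figure D3:**
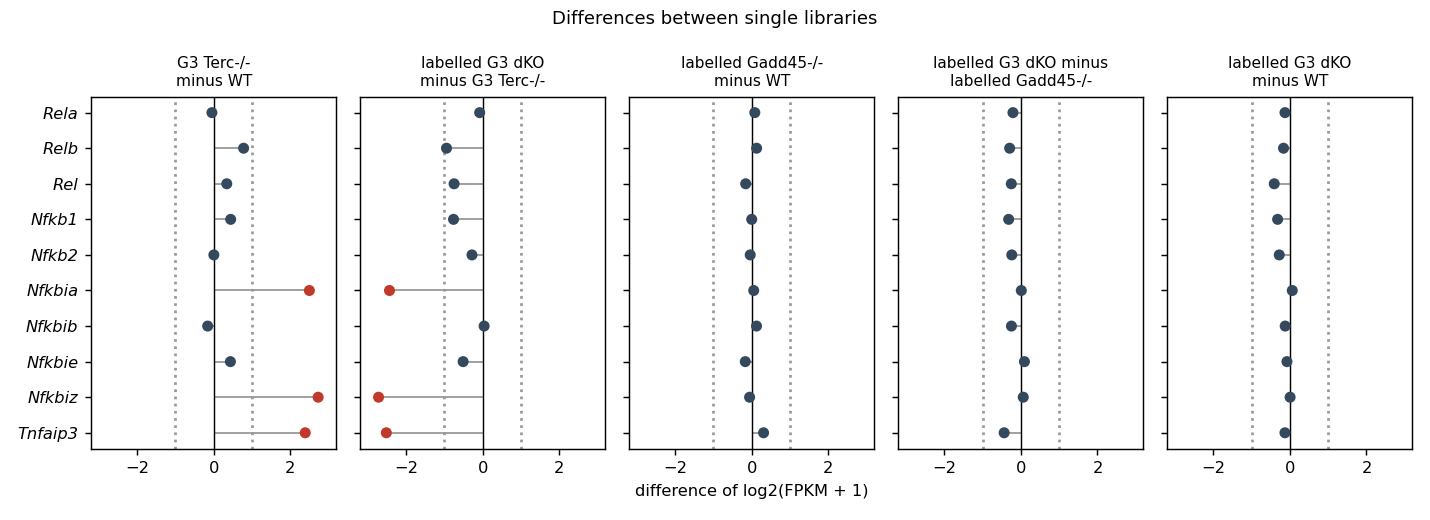
Difference of log2(FPKM + 1) for each of the 10 genes in 5 comparisons of single libraries, first-named minus second-named; dotted lines mark the size rule at 1 and -1, and red points lie past it. Nfkbia, Nfkbiz and Tnfaip3 lie past the rule in G3 Terc-/- minus WT (2.50, 2.73 and 2.39) and in the library labelled G3 dKO minus G3 Terc-/- (-2.43, -2.72 and -2.52), and no gene does in the other 3 comparisons.

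The genes differed among themselves across the 4 libraries. Likeness was measured as the Euclidean distance between profiles of log2(FPKM + 1) over the 4 libraries, each centred on its own mean, a measure that takes in the size of a change as well as its pattern. The closest pairs were Rel with Nfkb1 (0.113) and Rela with Nfkbib (0.115). The pseudocount shrinks the changes of low genes such as Rel in this measure. In FPKM, the highest library was 2.29-fold the lowest for Rel and 1.74-fold for Nfkb1. Nfkbia lay 0.257 from Nfkbiz and 0.337 from Tnfaip3.

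Outside the family, among 11586 symbols with a mean of at least 1 FPKM, the 5 profiles nearest to the mean profile of the 10 genes were those of Siglecg, Ube2ql1, Fam108c, Cyp39a1 and Mgst3, at distances of 0.0664 to 0.101. That mean joins genes as unlike as Nfkbiz (2.73 in G3 Terc-/- minus WT) and Nfkb2 (0.004). Nearness to it is therefore not likeness to any 1 member. Siglecg was at 21.8 FPKM in the library labelled G3 dKO, 46.8 in G3 Terc-/-, 25.8 in the library labelled Gadd45-/- and 23.8 in WT. Nearest to Relb were Parp12 (0.0322), Ptch1 (0.0386) and Cdk6 (0.0574), and nearest to Nfkb2 were Rngtt (0.0194), Csnk1g2 (0.0233) and Pbp2 (0.0234). A flat profile such as that of Nfkb2 is near to many others, and likeness over 4 libraries is a description.

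The rest of the pathway was followed through lists of receptors, adaptors, kinases, further inhibitors and target genes, counted over every listed gene. The counts stand beside 5.7% of all symbols higher in G3 Terc-/- than in WT (9.93% of those with a mean of at least 1 FPKM), 2.79% lower in the library labelled G3 dKO than in G3 Terc-/- (4.78% likewise), and a median of 0 over all symbols in both comparisons. Receptors had 3 of 9 genes higher in G3 Terc-/- than in WT and none lower, with a median difference of 0.72. Those were Tnfrsf1b, for TNF receptor 2, at 8.60 FPKM in the library labelled G3 dKO, 12.7 in G3 Terc-/-, 5.26 in the library labelled Gadd45-/- and 3.23 in WT, and the pathogen sensors Tlr2 and Tlr3. Tlr2 was at 0.699 FPKM in the library labelled G3 dKO, 5.83 in G3 Terc-/-, 1.25 in the library labelled Gadd45-/- and 1.31 in WT. Tlr3 stood at 1.13, 2.50, 0.643 and 0.497 FPKM in the libraries labelled G3 dKO, G3 Terc-/-, Gadd45-/- and WT. The interleukin-1 receptor gene Il1r1 was 1.91-fold higher in G3 Terc-/- than in WT, inside the rule.

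In the library labelled G3 dKO 2 of the 9 receptor genes were lower than in G3 Terc-/-, Tlr2 and Cd40, and none was higher. Cd40, a receptor that feeds the alternative pathway and was chosen after its values were seen, was at 0.648 FPKM in the library labelled G3 dKO, 8.34 in G3 Terc-/-, 5.43 in the library labelled Gadd45-/- and 11.1 in WT. Unlike the feedback genes, it was highest in WT.

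Adaptors and ubiquitin ligases, which carry the signal from receptor to IKK, had none of 17 genes past the rule between G3 Terc-/- and WT. The median difference was 0.19. The largest differences were those of Birc3, for the ligase cIAP2 (9.08 FPKM in G3 Terc-/-, 6.15 in WT), Irak2 (11.8 in G3 Terc-/-, 8.13 in WT), Traf2 (8.83 in G3 Terc-/-, 6.20 in WT) and, in the opposite direction, Traf5 (4.02 in G3 Terc-/-, 5.79 in WT). Between the library labelled G3 dKO and G3 Terc-/- none of the 17 passed either, and Birc3 was at 4.63 FPKM in the library labelled G3 dKO.

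Of the 11 genes listed for IKK and upstream kinases, some of which encode partner proteins of kinases, 2 were higher in G3 Terc-/- than in WT. The core of IKK was not among them. Ikbkb and Chuk, its catalytic subunits, were chosen after their values were seen. Ikbkb, for IKK-beta, was at 14.7 FPKM in the library labelled G3 dKO, 14.9 in G3 Terc-/-, 14.8 in the library labelled Gadd45-/- and 14.4 in WT. Chuk, for IKK-alpha, was at 17.5 FPKM in G3 Terc-/- against 14.3 in WT, and Ikbkg, for the scaffold NEMO, at 10.2 in G3 Terc-/- against 6.01 in WT. Map3k14, for NIK, the kinase that starts the alternative pathway, was at 6.78 FPKM in G3 Terc-/- against 3.78 in WT.

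The 2 genes past the rule were Map3k8 and Ikbke. Map3k8 encodes TPL2, a kinase held inactive by p105, and it was at 2.37 FPKM in the library labelled G3 dKO, 8.43 in G3 Terc-/-, 0.695 in the library labelled Gadd45-/- and 0.845 in WT. Ikbke encodes an IKK-related kinase that also acts on interferon regulatory factors. It was at 5.71 FPKM in the library labelled G3 dKO, 19.5 in G3 Terc-/-, 3.10 in the library labelled Gadd45-/- and 3.42 in WT. Both were lower by the rule in the library labelled G3 dKO than in G3 Terc-/-. Against WT, that library held 2.81-fold as much Map3k8 and 1.67-fold as much Ikbke, differences of 0.87 and 0.60 and inside the rule. Nfkbia and Nfkbiz were at 1.05-fold and 1.00-fold WT there.

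Among 19 further inhibitors and feedback genes, 2 were higher in G3 Terc-/- than in WT and none lower, a share near the 9.93% of all symbols with a mean of at least 1 FPKM, with a median difference of 0.31. Zc3h12a, for Regnase-1, an RNase that degrades inflammatory mRNAs, was at 3.10 FPKM in the library labelled G3 dKO, 23.1 in G3 Terc-/-, 3.31 in the library labelled Gadd45-/- and 3.37 in WT. Bcl3, for an atypical IkB protein that binds p50 and p52, was at 9.46 FPKM in the library labelled G3 dKO, 25.5 in G3 Terc-/-, 6.60 in the library labelled Gadd45-/- and 6.63 in WT. They were also the 2 of 19 that were lower in the library labelled G3 dKO than in G3 Terc-/-. Tnip1, whose product works with A20, was 1.86-fold higher in G3 Terc-/- than in WT, inside the rule. Pdlim2, for a nuclear ubiquitin ligase of p65, was at 49.0 FPKM in the library labelled G3 dKO and 50.6 in G3 Terc-/-, against 29.1 in the library labelled Gadd45-/- and 25.7 in WT, so it went with both G3 libraries.

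Textbook NF-kB target genes, a list written with the secretory genes of these data already known and thus no independent evidence of direction, had 22 of 26 genes higher in G3 Terc-/- than in WT and 22 of 26 lower in the library labelled G3 dKO than in G3 Terc-/-. Median differences were 3.04 and -2.95. Lcn2, an iron-binding lipocalin, was at 0.386 FPKM in the library labelled G3 dKO, 175 in G3 Terc-/-, 0.386 in the library labelled Gadd45-/- and 0.631 in WT. That is a difference of 6.75 between G3 Terc-/- and WT, the second of the 26. Saa3, for an acute-phase protein, came first with 9.10, and the neutrophil chemokine genes Cxcl1 and Cxcl5 came next with 5.66 and 5.40.

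The 4 targets inside the rule in both comparisons were Sod2, Tnf, Il1b and Bcl2a1b. Sod2, the mitochondrial superoxide dismutase, was at 10.3 FPKM in the library labelled G3 dKO, 19.7 in G3 Terc-/-, 11.2 in the library labelled Gadd45-/- and 12.4 in WT. Between the library labelled Gadd45-/- and WT none of the 26 passed, where 0.311% of all symbols did. In the library labelled G3 dKO 3 of the 26 targets were higher than in WT and none was lower. They were Ptgs2 (128 FPKM there, 28.6 in WT), Il6 (4.77 there, 0.87 in WT) and Csf1 (294 there, 99.3 in WT). These 3 are named because they passed the rule, and the median difference of the 26 targets was 0.025. Nfkbia, Nfkbiz and Tnfaip3 lay inside the rule in this comparison. In this comparison 3.57% of all symbols passed in either direction, and 6.65% of those with a mean of at least 1 FPKM. The cytokine gene Il1b was listed at 0 in all 4 libraries, and Tnf at 0 in all but the library labelled G3 dKO (0.0354 FPKM). Bcl2a1b did not exceed 0.358 FPKM in any library.

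**Figure D4:**
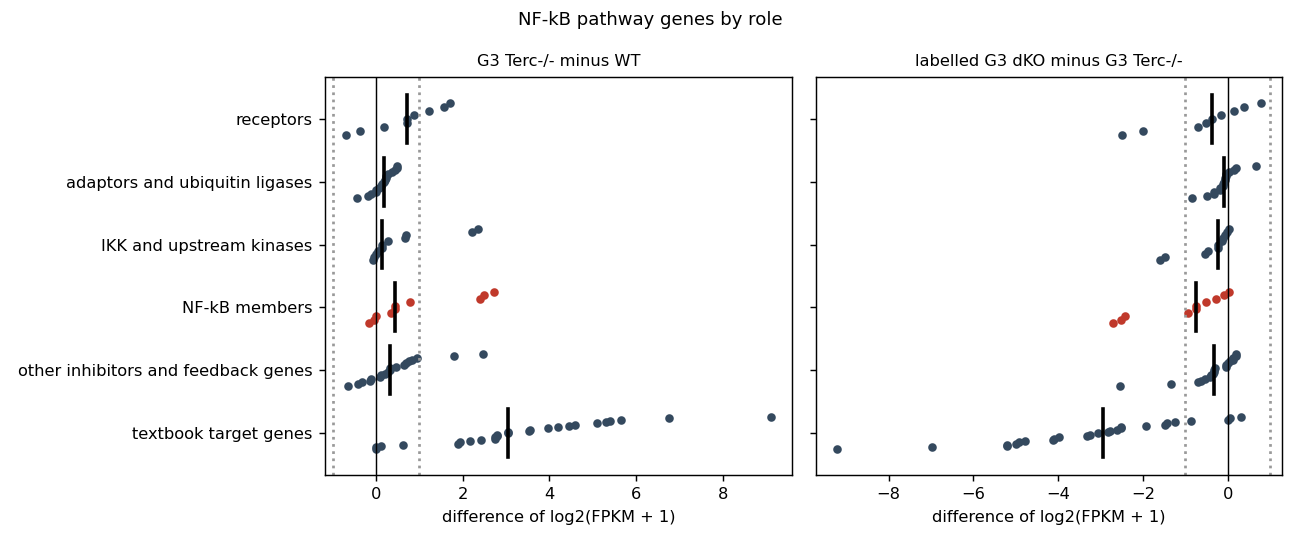
Difference of log2(FPKM + 1) for the listed genes of each pathway list (points) with the list's median (black bar), for G3 Terc-/- minus WT (left) and the library labelled G3 dKO minus G3 Terc-/- (right); the 10 NF-kB genes are red and dotted lines mark the size rule at 1 and -1. Adaptors lie within the rule in both panels, and target genes have medians of 3.04 and -2.95.

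Several of the genes described are also expressed by immune cells, so markers of those cells were read in the same libraries. The 8 macrophage markers summed to 18.0 FPKM in the library labelled G3 dKO, 9.57 in G3 Terc-/-, 6.52 in the library labelled Gadd45-/- and 5.11 in WT. Between 2 and 3 of the 8 reached 1 FPKM in any library (Cd68, Lyz2 and Cd14), and Fcgr1 was listed at 0 in the libraries labelled Gadd45-/- and WT. Cd14 was at 2.33 FPKM in the library labelled G3 dKO, 3.998 in G3 Terc-/-, 1.59 in the library labelled Gadd45-/- and 0.792 in WT, so it was highest in G3 Terc-/-. Lyz2 was at 11.5 FPKM in the library labelled G3 dKO and between 2.10 and 2.44 in the other 3. The remaining 5 markers, among them Ptprc and Emr1, did not exceed 0.901 FPKM in any library. The part of macrophages in these results was not tested. The 3 listed neutrophil markers summed to 3.07 FPKM in G3 Terc-/-, where S100a8 reached 2.96, and to at most 0.074 in the other 3, with S100a9 listed at 0 in all 4. The part of S100a8-bearing cells in these results was not tested. Endothelial markers summed to between 1.13 and 1.49 FPKM. Epithelial markers summed to 1.89 FPKM in the library labelled G3 dKO, 1.67 in G3 Terc-/-, 2.70 in the library labelled Gadd45-/- and 9.15 in WT.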

How the data were processed

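Polyadenylated RNA was sequenced in 4 libraries, per the labels' protocols. FPKM, with 1 value per symbol and library, is the unit the authors deposited; TopHat2 2.1.1, Cufflinks 2.2.1 and build mm9 are named, without roles, in the submitters' processing notes. The annotation, strand setting and filters are not given in the sources used here.

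From each table, 745 symbols of short RNA were left out and 22490 compared. Differences are of log2(FPKM + 1) on FPKM as deposited, called at 1 or -1. No test was run, with 1 library per genotype. The members and lists were chosen with earlier results of these data known. Named are the 10 members, up to 4 measured genes (mean of at least 1 FPKM) with the largest difference between G3 Terc-/- and WT from each list, the nearest profiles, and library checks; others are said to be chosen after their values were seen or named because a count was 5 or fewer. The symbols Emr1 and Fam105b stand for Adgre1 and Otulin, older names for the same genes. The list of lymphocyte markers is not reported here.

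Depth was estimated from FPKM of at most 0.05 in genes with 1 GENCODE M21 transcript of 1500 to 8000 nt, taking 200 nt as the fragment; 77.1% to 83.3% of these values lay within 0.1 of a whole fragment, a share that is no independent check, since the depth was set on the same values. Member counts use the longest coding transcript and are approximate. PCR duplicates are not independent molecules. Promoters came from RefSeq, build GRCm38.p6, which differs from the files' build, and no coordinates were carried between builds. The calculation was tested on simulated data and run in Python 3.11.15 with numpy 2.4.6, pandas 2.3.3 and scipy 1.17.1. Alternatives were another pseudocount, 2 other scalings, a 1.5-fold rule and a filter on low values.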

Additional observations from a re-analysis of the deposited data

Results flagged for a closer look

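For 3 of the 10 genes the differences in the 2 comparisons by the Gadd45 label had opposite signs. They also parted by at least 1 on the log2(FPKM + 1) scale. With 1 library per genotype, the parting of the 2 comparisons was not tested. The share of all symbols past this rule is not given here, so the count is not read as particular to these genes. The double difference subtracts the library labelled Gadd45-/- minus WT from the library labelled G3 dKO minus G3 Terc-/-. For Tnfaip3, whose product A20 dampens signalling to IKK, it was -2.82, from -2.52 in G3 cells and 0.31 in cells with Terc. For Nfkbia it was -2.48, from -2.43 and 0.051. For Relb it was -1.07, from -0.95 and 0.13. In cells with Terc the differences of Nfkbia and Relb were within counting error, with fold intervals of 0.864 to 1.25 and 0.936 to 1.30. An opposite direction is thus not shown for them. For Tnfaip3 the interval was 1.10 to 1.92, but it covers counting error only. The libraries labelled Gadd45-/- and WT also differ in sex, so an opposite direction by genotype is not shown for Tnfaip3 either.

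Nfkbiz had a double difference of -2.66, from -2.72 in G3 cells and -0.057 in cells with Terc, where its fold interval was 0.866 to 1.06. Its sign there thus does not set it apart from Nfkbia and Relb. In all 4 genes the G3 Terc-/- library held the highest of the 4 FPKM values.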

How the results depend on the processing

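With a pseudocount of 0.1 FPKM, 5 of the 10 genes were lower in the library labelled G3 dKO than in G3 Terc-/-, in place of 3: Rel (-1.13) and Relb (-1.04) joined, and 10.5% of all symbols then passed in either direction. With a 1.5-fold rule it was 6, with 10.3% of all symbols. With the smaller pseudocount the double difference of Tnfaip3 was -3.81, since its low values are then shrunk less. The other counts and double differences kept within 1.5 times or within counting error under all alternatives run, and no called difference changed sign. Median-of-ratios factors lay between 0.98 and 1.04. No paired analysis was possible because each genotype had 1 library, and no library could be left out. Depth limits Nfkbie and Tnfaip3 most, at 45 to 90 and 75 to 808 fragments.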
